A study of Mus musculus with 8 samples.

Results

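Of the 55341 entries in the files of cultured Th17 cells, 13 genes were read with TGF-β plus IL-6 and hardly at all with IL-23, IL-1β and IL-6. The rule asked for 40 or more counts in each of the control and knockout TGF-β and IL-6 libraries and for 12 or fewer counts summed over both libraries of the IL-23 mix. It matched 17 entries, of which Gpr15 and 3 entries with provisional names (Gm or Rik symbols) were left out. The 13 genes are Gli3, Daw1, Samd4, Ttbk1, Xcl1, Olfm2, Trim9, Tmeff1, Gja3, Adam12, Insm1, Fgfrl1 and Ankrd55. They were selected on the measured counts of the 4 cultured libraries, so their difference between the mixes is a description and was not tested. The libraries of colon T cells took no part in the choice.

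The series set control mice with floxed Rora alleles (Rora_fl/fl) against knockout mice that also carry Cd4_cre, a Cre recombinase driven by Cd4 and thus active in T cells. In culture, naive CD4+ cells of each genotype were activated through CD3 and CD28 over 4 days. The medium held either TGF-β plus IL-6 or the trio of IL-6, IL-1β and IL-23, with 1 library for each genotype and mix. Naive cells were also transferred into Tcrbd-/- mice, which lack T cells of their own but keep other immune and tissue cells, and after 6 weeks the CD4+ cells of the colon were collected (2 control and 2 knockout libraries). All cells of all groups received PMA and ionomycin, which activate T cells, for 2 hours before RNA extraction. The sources used here give neither the ages of the mice nor whether libraries came from separate or pooled animals. The cultured libraries held 15252700 to 15922696 counts and the colon libraries 13176752 to 14967756. Rora, the deleted gene, was read 3104 and 4067 times in control colon cells, against 1958 and 2305 times in knockout ones. In culture it had 7881 in control and 3020 in knockout with TGF-β and IL-6, against 2307 and 906 with the IL-23 mix, so its counts were lower in the knockout in each setting. Markers of T cells were present in all 4 cultured libraries, where 16 of 16 listed markers reached 5 CPM (counts scaled by library size). Their sums ran from 7979 to 8564 CPM. Listed markers of other cell types were read there too. In control and knockout, fibroblast and smooth muscle markers summed to 2.66 and 3.77 CPM with TGF-β and IL-6. With the IL-23 mix they summed to 491 and 459 CPM, mostly Lum. Macrophage and dendritic cell markers summed to 27.4 and 21.0 against 229 and 211 CPM. Epithelial markers summed to 21.0 and 20.1 against 24.9 and 26.2 CPM. The source of these reads was not tested.

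TGF-β binds a receptor kinase complex that phosphorylates SMAD2 and SMAD3, which enter the nucleus with SMAD4 and change transcription together with other factors. With IL-6 it turns naive CD4+ T cells into Th17 cells. IL-6, IL-1β and IL-23 can do so without added TGF-β, and cells made that way are known for a more inflammatory set of genes. The TGF-β and IL-6 mix differs from the other in what it holds and in what it lacks, so a gene seen with it alone may be induced by TGF-β or repressed by IL-1β or IL-23, and these cannot be told apart here.

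Sequences upstream of the transcription start are shown for 4 of the genes, to set those that colon T cells also carried (Xcl1 and Ttbk1) beside those that they nearly or wholly lacked (Daw1 and Trim9). RefSeq promoter windows on GRCm38.p6 were found for 10 of the 13 genes. The windows below run 5′ to 3′ on the gene's strand and stop where the gene body of GENCODE M21 starts. Capitals mark the SMAD motif CAGAC and the STAT motif TTCNNNGAA on either strand, and lower case stands for the rest. They lie at chr1:164935528-164935772 (Xcl1, minus strand), chr17:46487676-46487925 (Ttbk1, minus), chr1:83159505-83159751 (Daw1, plus) and chr12:70347615-70347864 (Trim9, minus).
Xcl1: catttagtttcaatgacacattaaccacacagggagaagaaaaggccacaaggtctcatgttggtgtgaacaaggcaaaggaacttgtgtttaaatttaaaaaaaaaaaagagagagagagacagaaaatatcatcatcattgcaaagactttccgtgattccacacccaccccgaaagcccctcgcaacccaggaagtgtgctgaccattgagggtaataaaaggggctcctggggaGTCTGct
Ttbk1: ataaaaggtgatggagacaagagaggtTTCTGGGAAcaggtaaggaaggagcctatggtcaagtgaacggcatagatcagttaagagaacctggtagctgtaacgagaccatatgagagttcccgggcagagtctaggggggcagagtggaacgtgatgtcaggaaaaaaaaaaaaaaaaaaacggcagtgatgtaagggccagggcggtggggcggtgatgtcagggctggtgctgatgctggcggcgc
Daw1: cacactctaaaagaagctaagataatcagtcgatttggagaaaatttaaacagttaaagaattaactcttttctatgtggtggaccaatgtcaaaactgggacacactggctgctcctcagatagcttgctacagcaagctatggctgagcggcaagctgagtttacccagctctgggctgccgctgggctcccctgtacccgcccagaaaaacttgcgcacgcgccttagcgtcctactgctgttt
Trim9: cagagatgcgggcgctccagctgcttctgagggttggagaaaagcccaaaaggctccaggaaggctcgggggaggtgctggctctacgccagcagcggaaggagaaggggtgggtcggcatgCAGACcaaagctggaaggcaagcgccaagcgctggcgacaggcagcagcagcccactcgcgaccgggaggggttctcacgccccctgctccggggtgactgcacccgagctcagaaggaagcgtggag

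Both strands of the full 250 bases upstream of each RefSeq start were searched, including bases in the GENCODE gene body that are cut above. The motifs were CAGAC, the SMAD palindrome GTCTAGAC, the AP-1 motif TGANTCA, the ROR motif AGGTCA and the STAT motif TTCNNNGAA. The palindrome shares its last letters with CAGAC without holding it whole. CAGAC was found in 7 of 15 windows of the 10 genes (46.7%), namely of Gja3, Gli3, Olfm2, Trim9 and Xcl1, and in 42.2% of all 32841 windows. The palindrome was in no window of the genes and in 0.168% of all windows, and TGANTCA in none and in 6.75%. AGGTCA occurred in 1 window, of Olfm2, and in 14% of all windows. TTCNNNGAA occurred in 1 window, of Ttbk1, and in 7.02% of all. The shares of the 15 windows, some of which belong to the same gene, were thus near or below those of all windows. A match of letters is no evidence of binding.

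In culture the 13 genes were weakly expressed with TGF-β and IL-6. Their counts there ran from 40 to 176 and their levels from 2.51 to 11.1 CPM, with medians of 4.18 CPM (control) and 5.21 CPM (knockout). The 10359 genes with 40 or more counts in each of these libraries had medians of 39.0 and 39.3 CPM. With the IL-23 mix no member exceeded 8 counts in a library, and 12 counts over both libraries equal 0.393 CPM. Genes of this kind made up 0.135% of the 9623 named genes with 40 or more counts in each TGF-β and IL-6 library. The same thresholds turned round, for genes on with the IL-23 mix and silent with TGF-β and IL-6, gave 117 genes, or 1.17% of 9995.

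**Figure D1:**
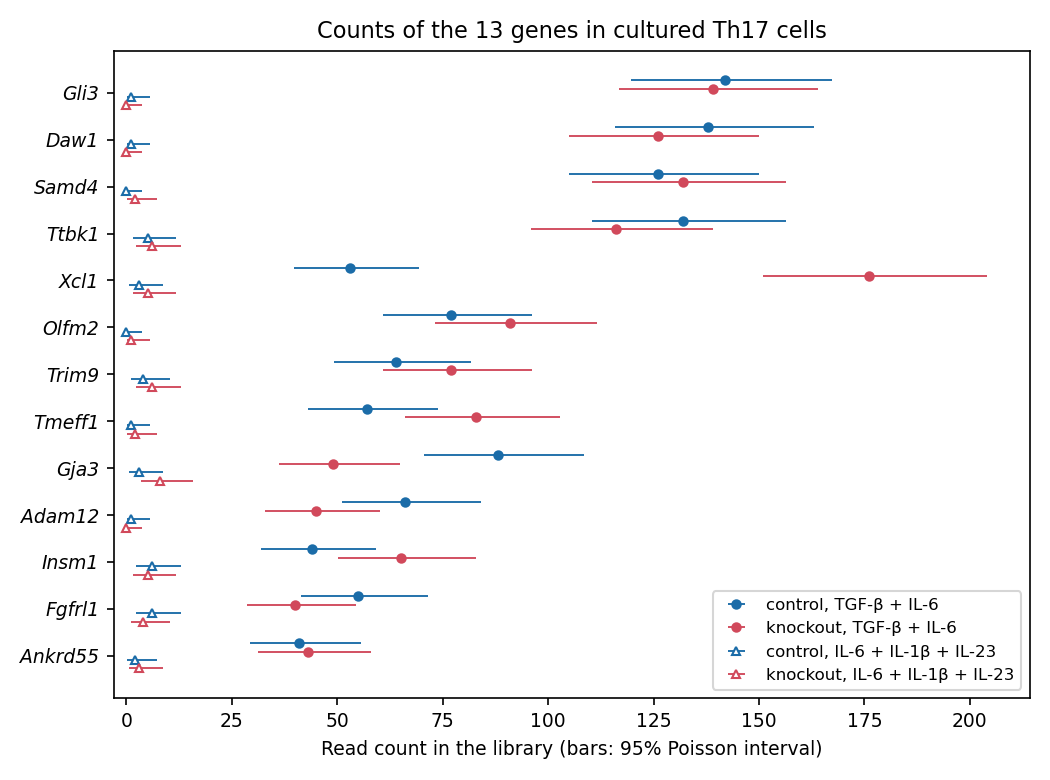
Read counts of the 13 genes in the 4 libraries of cultured Th17 cells, with 1 library per genotype and mix; bars are 95% Poisson intervals for counting error only. All 13 genes have 40 or more counts in both TGF-β and IL-6 libraries, as the rule requires, and at most 8 in either IL-23 library, and Xcl1 has the widest gap between genotypes.

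The transcription and RNA regulators among them were Gli3, Samd4 and Insm1. Gli3 (chr13:15463235-15730026 in mm10), a zinc finger transcription factor of the Hedgehog pathway that often acts as a repressor, had 142 counts in control and 139 in knockout with TGF-β and IL-6, against 1 and 0 with the IL-23 mix. Samd4 (chr14:46882854-47105815), which encodes an RNA-binding protein that represses translation of its target mRNAs, had 126 and 132 against 0 and 2. Insm1 (chr2:146221921-146225020), a zinc finger transcription factor of neuroendocrine cells, had 44 and 65 against 6 and 5. Gli3 and Samd4 were thus almost unread with the IL-23 mix, while Insm1 lay near both limits of the rule.

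Among genes for secreted or surface proteins, Xcl1 differed most between genotypes. Xcl1 (chr1:164931644-164935527) encodes lymphotactin, a chemokine that attracts dendritic cells carrying XCR1, and had 53 counts in control and 176 in knockout with TGF-β and IL-6, against 3 and 5 with the IL-23 mix. Olfm2 (chr9:20667690-20746349), for a secreted glycoprotein with an olfactomedin domain, had 77 and 91 against 0 and 1. Tmeff1 (chr4:48585174-48663131), for a membrane protein with follistatin-like and EGF-like domains, had 57 and 83 against 1 and 2. For these 3 genes the knockout library was the higher with TGF-β and IL-6. The reverse was seen for the other surface genes. Gja3 (chr14:57034460-57058100), for the gap junction protein connexin 46 of the lens, had 88 in control and 49 in knockout against 3 and 8 with the IL-23 mix. Adam12 (chr7:133883199-134232146), for a membrane-anchored metalloprotease, had 66 and 45 against 1 and 0. Fgfrl1 (chr5:108692382-108706924), for an FGF receptor-like protein without a kinase domain, had 55 and 40 against 6 and 4. With 1 library per genotype, the 95% counting intervals of the knockout to control ratio included 1 for Olfm2, Adam12 and Fgfrl1.

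Ttbk1, Trim9, Daw1 and Ankrd55 encode enzymes and scaffold proteins, the first 3 of them better known from neurons or cilia than from T cells. Daw1 (chr1:83159752-83210574), for a factor in the assembly of dynein arms of motile cilia, had 138 counts in control and 126 in knockout with TGF-β and IL-6, against 1 and 0 with the IL-23 mix. Ttbk1 (chr17:46442448-46487675), a kinase of the protein tau, had 132 and 116 against 5 and 6. Trim9 (chr12:70244533-70347614), a ubiquitin ligase enriched in brain, had 64 and 77 against 4 and 6. These 3 genes had similar counts in both genotypes. Ankrd55 (chr13:112288451-112384002), for an ankyrin repeat protein, had 41 and 43 against 2 and 3, close to the lower limit in both TGF-β and IL-6 libraries.

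With the counts of both genotypes summed, the ratio of the TGF-β mix to the IL-23 mix was 270 for Gli3 with a 95% counting interval of 48.1 to 10720, since it rests on 1 count with the IL-23 mix. It was 254 for Daw1 (45.2 to 10070), 162 for Olfm2 (28.6 to 6421), 124 for Samd4 (34.0 to 1030) and 107 for Adam12 (18.8 to 4255). The intervals of these 5 genes overlapped, so their order could not be set at this depth. The smallest ratios were 9.14 for Fgfrl1 (4.76 to 19.7) and 9.53 for Insm1 (5.12 to 19.7). The intervals cover counting error only. Gja3, Insm1 and Ttbk1, with 11 counts each in the IL-23 libraries, lay just inside the limit of 12, and Sptb, with 13, just outside it. Fgfrl1, with 40 counts in the knockout, lay just inside the limit for the TGF-β libraries, and Fzd9, with 37 in the control, just outside it.

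Per kilobase of exon (GENCODE M21), which allows genes to be compared, Xcl1 had the highest mean level with TGF-β and IL-6 at 13.8 CPM per kb. Daw1 followed with 3.89, Olfm2 with 1.99 and Tmeff1 with 1.73. The lowest levels were those of Adam12 (0.331 CPM per kb) and Trim9 (0.313). Xcl1 is also the shortest of the 13 by exon bases, with 523, where Trim9 has 14203. All 13 genes were protein-coding. They lay on 10 chromosomes, and no 2 of them were closer than 9.93 Mb, so they form no cluster.

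Some neighbours of these genes were also higher with TGF-β and IL-6, most of all Ccl20, but none of these was silent with the IL-23 mix. Within 100 kb of 9 of the genes, 22 other genes had 100 or more counts over the 4 cultured libraries. Of these, 5 were at least 2-fold higher with TGF-β and IL-6, 3 at least 2-fold lower and 14 in between, with a median log2 ratio of 0.14. Over all genes with as many counts the median was 0.03, and 12.3% were at least 2-fold higher. Ccl20, the chemokine that binds CCR6 on Th17 cells, lies 40585 bases from Daw1 on the same strand. It had 18861 counts in control and 14171 in knockout with TGF-β and IL-6, against 51 and 36 with the IL-23 mix. Daw1 and Ccl20 were thus both high with TGF-β and IL-6 and low with the IL-23 mix, at very different levels.

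Il6st, for the signalling chain shared by receptors of the IL-6 family, lies 80068 bases from Ankrd55. Its counts were 1505 and 1474 with the TGF-β mix, against 152 and 158 with the IL-23 mix. Gch1, for the first enzyme of tetrahydrobiopterin synthesis, lies 48080 bases from Samd4 and had 582 and 602 against 133 and 140. Ttbk1 had 2 such neighbours, Dnph1 (359 and 405 against 96 and 95) and Zfp318 (1110 and 873 against 240 and 297). The opposite was seen for Pygl, for liver glycogen phosphorylase, which lies 13045 bases from Trim9 and had 43 and 13 against 342 and 310. Idua near Fgfrl1 and Cul9 near Ttbk1 were also at least 2-fold lower.

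**Figure D2:**
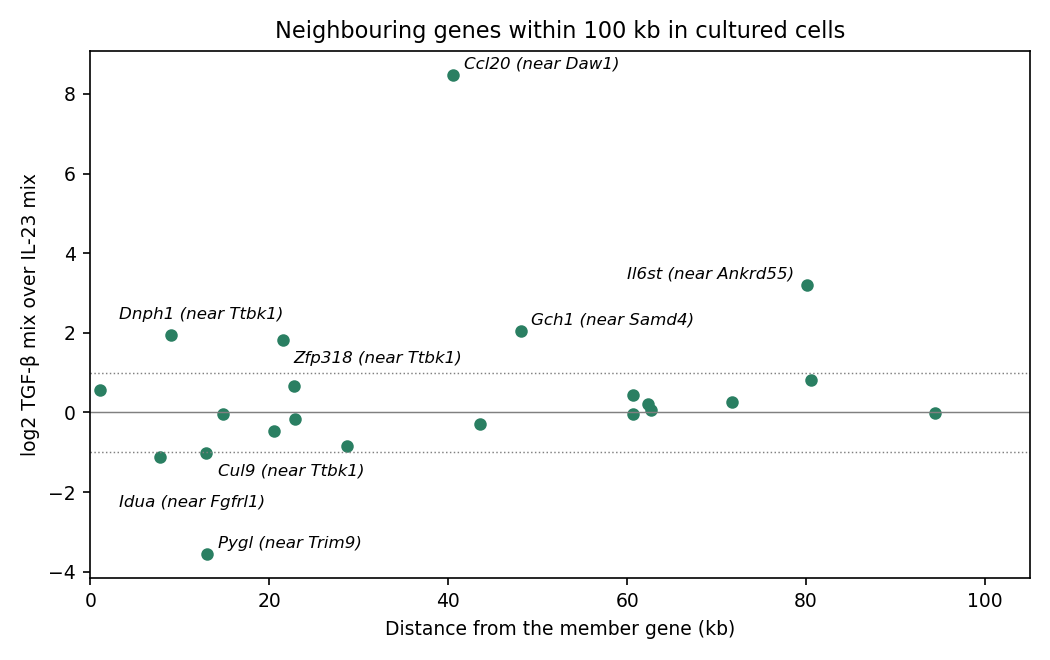
Each point is 1 of 22 genes within 100 kb of a member gene; the x axis gives the distance in kb and the y axis the log2 ratio of the TGF-β mix to the IL-23 mix with both genotypes summed, and dotted lines mark 2-fold. Ccl20 stands far above the rest at 8.48, Il6st follows at 3.20, and 14 of the 22 lie within 2-fold.

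Among 13 relatives and partners of the member genes, picked with these results known, 4 reached 5 CPM in culture, and 0 of these were at least 2-fold higher with TGF-β and IL-6 in both genotypes. For Gli3, the related genes Gli1 (1 to 5 counts) and Gli2 (0 in all 4 libraries) were hardly read in culture. Samd4b, the paralog of Samd4, was read in both mixes, with 1800 and 1839 counts with the TGF-β mix, against 2090 and 2206 with the IL-23 mix. Ttbk2 had 61 and 56 against 97 and 79. Adam19, a relative of Adam12, was read 6843 and 5813 times against 3552 and 2760. Fgfr1, which unlike Fgfrl1 has a kinase domain, was lower with TGF-β and IL-6, with 45 and 61 counts against 227 and 301. Xcr1, for the receptor of lymphotactin, had 6 to 13 counts in the 4 cultured libraries.

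Genes of the wider TGF-β pathway came from lists that did not use the rule. Some were at least 2-fold higher with either mix in both genotypes, but most ligand, receptor, SMAD and feedback genes were not. Of 16 genes for TGF-β ligands, receptors and SMAD proteins, 13 reached 5 CPM in 1 library of each genotype pair. Tgfbr1, for the type I receptor, was at least 2-fold higher with TGF-β and IL-6 in both genotypes (4533 and 4425 counts against 366 and 372). The ligand gene Tgfb3 (10 and 5 against 1411 and 1490), Lrrc32, Ltbp3 and Eng were at least 2-fold lower, and 8 were neither. The list's median log2 ratio was -0.61 in control and -0.77 in knockout, against 0.05 and 0.06 over all 10115 genes at this level. Among all these genes 10.7% were at least 2-fold higher in both genotypes and 13% at least 2-fold lower.

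Of 13 feedback and co-repressor genes at 5 CPM (of 16), 1 was at least 2-fold higher with TGF-β and IL-6 in both genotypes, Id1 (166 and 165 counts against 27 and 29), and 1 was at least 2-fold lower. The list's medians were 0.39 and 0.34. Of 11 genes that respond to TGF-β in T cells at 5 CPM (of 16), 5 were at least 2-fold higher in both genotypes, among them Ahr, Ccr8, Nt5e and Rgs16, and Entpd1 and Gpr83 were lower, with medians of 0.57 and 0.49. Ahr encodes the aryl hydrocarbon receptor, and Nt5e the ectoenzyme CD73, which makes adenosine. Of 9 listed targets of the aryl hydrocarbon receptor 3 reached 5 CPM, of which 1 was higher, 1 lower (Il22, with 4 and 3 counts against 1026 and 752) and 1 neither. No gene of these 4 lists was among the 13.

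**Figure D3:**
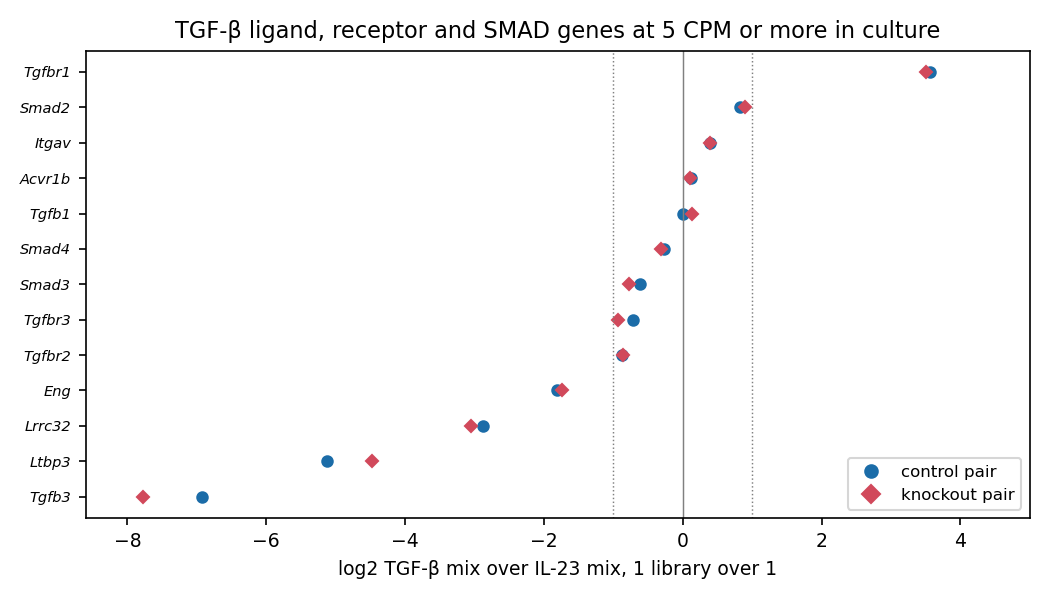
Log2 ratio of the TGF-β mix to the IL-23 mix for the 13 ligand, receptor and SMAD genes at 5 CPM or more, 1 library over 1, in the control pair (circles) and the knockout pair (diamonds); dotted lines mark 2-fold. Tgfbr1 lies above 2-fold in both pairs, Tgfb3, Ltbp3, Lrrc32 and Eng lie below it, and the other 8 lie between.

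Between genotypes in the TGF-β and IL-6 culture, 1 of the 13 genes, Xcl1, differed by 2-fold or more, where 0.0772% of the 10359 genes with 40 or more counts in each library were at least 2-fold higher in the knockout and 0.125% at least 2-fold lower. The Xcl1 level was 11.1 CPM in knockout against 3.36 CPM in control. Their ratio was 3.29 (95% counting interval 2.41 to 4.56). The intervals also left out 1 for Gja3, at 0.552 (0.381 to 0.791), and for Tmeff1, at 1.44 (1.02 to 2.06). Of the 13 genes 7 were higher and 6 lower in the knockout, and the median log2 ratio was 0.05, against 0.01 over the 10359 genes. With 1 library per genotype these ratios have no replicate check.

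In colon T cells some of the 13 genes were present in every library, others were nearly absent, and Adam12 lay between them. All 13 were found in the colon files by symbol. A level of 1 CPM or more in every colon library was reached by 6 of them (46.2%), Xcl1, Ttbk1, Fgfrl1, Insm1, Ankrd55 and Samd4. The same level was reached by 94.7% of all genes with 40 or more counts in each TGF-β and IL-6 library, and by 79.3% of the 2097 of them that had no more than 176 counts there, the highest count of a member.

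Daw1 and Gja3 had 0 counts in all 4 colon libraries, which allows a level of up to 0.0532 CPM at a floor of 3 counts over the 4 libraries. Gli3 had 3 counts, all in knockout replicate 1, and Trim9 had 3 and Tmeff1 2 over all colon libraries. Olfm2 was read 3 and 1 times in control cells, against 6 and 4 times in knockout cells. These 6 genes, among them Gli3 and Daw1, which had the most counts with TGF-β and IL-6 when both genotypes are summed, were thus at or near 0 in the colon. Ccl20, the neighbour of Daw1, was present there, with 56.3 and 57.2 CPM in control and 44.7 and 57.4 CPM in knockout.

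Xcl1, Ttbk1, Fgfrl1 and Insm1 were higher in the colon than in the TGF-β and IL-6 culture. The mean over the 4 colon libraries was 158 CPM for Xcl1 against 7.20 CPM in that culture, 22.0 times as much. The colon mean was 5.34 times the culture mean for Ttbk1, 3.10 times for Fgfrl1 and 2.24 times for Insm1. Ankrd55 was at 0.951 times, Adam12 at 0.223 and Samd4 at 0.188. The colon and culture files use different annotation releases and the cells differ in source, so these ratios were not tested.

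**Figure D4:**
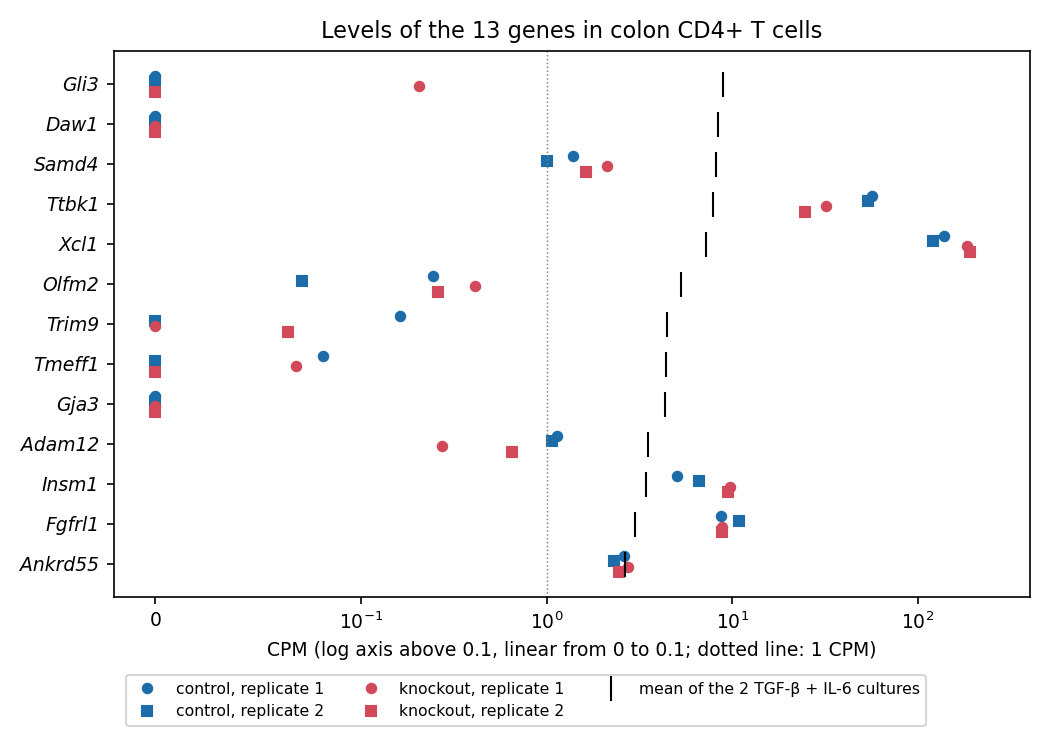
Levels of the 13 genes in CPM in each of the 4 colon libraries (blue, control; red, knockout), with a black bar at the mean of the 2 TGF-β and IL-6 cultures; the axis is logarithmic above 0.1 CPM and linear below. Xcl1, Ttbk1, Fgfrl1 and Insm1 lie to the right of their bars, and Daw1 and Gja3 sit at 0 in all 4 libraries.

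Knockout colon cells had less Ttbk1 RNA and more Xcl1 and Insm1 RNA than control cells. Ttbk1 stood at 56.8 and 53.8 CPM in control cells, and at 31.9 and 24.6 CPM in knockout cells. Xcl1 measured 139 and 121 CPM in control and 184 and 190 CPM in knockout. Insm1 measured 5.04 and 6.58 CPM in control and 9.69 and 9.51 CPM in knockout. For each of these 3 genes both knockout libraries lay on the same side of both control libraries. By the quasi-likelihood test of edgeR, adjusted after Benjamini and Hochberg over 13101 genes, the log2 fold change of Ttbk1 was -0.97 ± 0.12 (SE, adjusted p = 1.1e-04), that of Xcl1 was 0.53 ± 0.09 (adjusted p = 7.0e-04) and that of Insm1 was 0.72 ± 0.18 (adjusted p = 0.0075).

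These were 3 of the 7 members that passed the filter on low counts, in a comparison where 39.5% of the genes tested were called, 19.6% higher and 19.9% lower. The share of members called was thus near the background, and the members as a set did not stand out. The other 4 tested members did not pass. Adam12 was read 14 and 15 times in control cells, against 4 and 10 times in knockout cells, a log2 fold change of -1.23 ± 0.50 (SE, edgeR adjusted p = 0.071), which was -0.78 without knockout replicate 1 and -1.99 without knockout replicate 2. Samd4 measured 1.38 and 1.001 CPM in control and 2.11 and 1.62 CPM in knockout (0.65 ± 0.35, edgeR adjusted p = 0.16). The groups of Adam12 and Samd4 did not overlap, but their SEs were wide. Fgfrl1 measured 8.70 and 10.9 CPM in control and 8.80 in both knockout libraries (-0.16 ± 0.16, edgeR adjusted p = 0.47, with the sign turned by library totals). Ankrd55 measured 2.60 and 2.29 CPM in control and 2.73 and 2.46 CPM in knockout (0.09 ± 0.26, edgeR adjusted p = 0.81), so the groups of both genes overlapped. The median over the 7 tested members was 0.09, and 0.01 over all genes tested. With 1 library left out the members' median ran from -0.0097 (without knockout replicate 1) to 0.17 (without control replicate 1).

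Of the 11 members with any colon count, 6 had groups that did not overlap, against 50.3% of all genes with any colon count and 70.5% of the genes tested. They were Ttbk1 and Adam12, lower in knockout, and Xcl1, Insm1, Samd4 and Olfm2, higher in knockout. In the TGF-β and IL-6 culture, which shares no library with the colon, the ratio of knockout to control was 0.871 for Ttbk1 (95% counting interval 0.672 to 1.13), 0.676 for Adam12 (0.452 to 1.002), 3.29 for Xcl1, 1.46 for Insm1 (0.983 to 2.20), 1.04 for Samd4 (0.807 to 1.34) and 1.17 for Olfm2 (0.855 to 1.61). Only that of Xcl1 had an interval without 1.

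**Figure D5:**
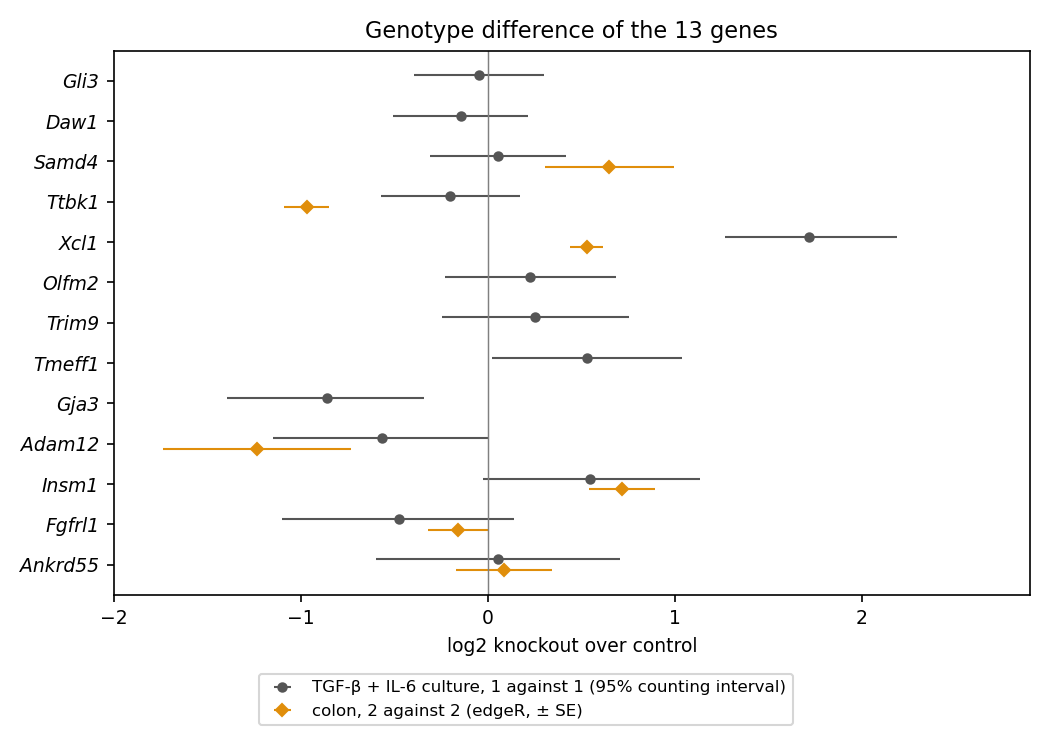
Log2 ratio of knockout to control for the 13 genes in the TGF-β and IL-6 culture (grey, 1 library against 1, with 95% counting intervals) and in the colon (orange, 2 against 2, edgeR estimate ± SE) for the 7 genes that passed the filter. Xcl1 lies above 0 in both settings, and Ttbk1 lies below 0 in the colon while its culture interval spans 0.

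The colon libraries also differed in markers of cell types. Of 16 T cell markers 12 fell and 1 rose in knockout, with sums of 13870 and 13400 CPM in control and 10890 and 10750 CPM in knockout and a median log2 fold change of -0.32. Scaled by library totals, 6 T cell markers fell and 1 rose, with a median of -0.13. In bulk samples fewer cells of a type and less RNA per cell cannot be told apart. Of 14 epithelial markers 10 were tested and 9 rose, with sums of 53.4 and 50.1 CPM in control and 138 and 138 CPM in knockout. Sums went from 41.2 and 29.1 to 125 and 115 CPM for fibroblasts and smooth muscle (9 of 12 tested markers rose), from 598 and 585 to 2093 and 2275 CPM for B and plasma cells (6 of 7), and from 197 and 190 to 291 and 287 CPM for macrophages and dendritic cells (8 of 12, with 1 that fell). Endothelial markers rose in 4 of 5 tested cases. Their sums ran from 103 to 113 CPM and were mostly Pecam1 (95.3 to 104 CPM), the tested marker that did not pass. The part of these cell types in the changes of Xcl1, Insm1 and Ttbk1 was not tested.

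For Insm1, which marks enteroendocrine cells in gut epithelium, 10 other markers of these cells were looked up. Their sums were 2.20 and 2.22 CPM in control and 1.5 and 1.42 CPM in knockout, below the level of Insm1 itself, and Neurod1 and Neurog3 had 0 counts in all 4 libraries. The sum followed Gcg, which fell from 1.06 and 1.64 CPM to 0.273 and 0.582 CPM, while Tph1, too low to be tested, measured 0.0813 and 0.0715 CPM in control against 0.477 and 0.582 CPM in knockout. Their part in the Insm1 result was not tested. Of 8 markers of enteric neurons and glia, 3 had 0 counts in all 4 libraries, among them S100b and Elavl4, and the sum followed Ret, which fell from 69.4 and 62.8 CPM to 28.4 and 23.8 CPM. For Xcl1, which NK and CD8 cells also make, the sums of 10 markers of NK, innate lymphoid and CD8 cells were 840 and 848 CPM in control and 849 and 867 CPM in knockout. Most of each sum was Gzmb, which rose from 409 and 395 to 533 and 516 CPM, and Nkg7, which fell from 291 and 312 to 194 and 212 CPM. Of the 10 markers 4 rose, among them Klrk1 (16.1 and 15.5 CPM to 43.2 and 43.9 CPM) and Ncr1 (0.163 and 0.215 to 1.02 and 0.906 CPM). Another 4 fell, among them Cd8a (20.2 and 17.5 to 2.05 and 2.07 CPM). Their part in the Xcl1 result was not tested. In the cultured cells this list summed to 23 and 39.6 CPM with TGF-β and IL-6 (control and knockout) and to 179 and 285 CPM with the IL-23 mix. There Cd8a, Ncr1 and Klrb1c had 0 counts in all 4 libraries, and Gzmb (171 to 3688 counts), Nkg7 (69 to 401), Cd8b1 (51 to 152) and Klrd1 (16 to 91) were read in each.

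Xcl1 shares 98 exon bases with Gm20743, a gene on the opposite strand that had 62 and 74 counts in control colon cells and 100 and 130 in knockout ones. Since the sources used here name no strand setting for the counting, reads there cannot be told apart. Xcl1 itself has 523 exon bases and had 1686 to 2941 counts in these libraries. Gm20743 was also called higher in knockout colon cells (log2 fold change 0.56, edgeR adjusted p = 0.031). The part of this overlap in the Xcl1 result was not tested. In all, 6 of the 13 genes share exon bases with a gene on the opposite strand, and the other genes sharing exon bases had at most 2 counts in any library.

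Neighbours and pathway genes in the colon gave a mixed picture. Il6st, the neighbour of Ankrd55, rose from 34.4 and 34.7 CPM in control to 60.5 and 55.1 CPM in knockout (log2 fold change 0.74, edgeR adjusted p = 1.3e-04), while Ankrd55 did not pass. Ccl20 did not pass either (-0.15, edgeR adjusted p = 0.31). Gch1, the neighbour of Samd4, fell by 0.49 on the log2 scale (edgeR adjusted p = 0.0014). Among relatives, Samd4b fell by 0.46 and Adam19 by 0.76 (edgeR adjusted p = 0.0015 and 5.2e-05), and Ttbk2 did not pass (-0.07, edgeR adjusted p = 0.81), unlike Ttbk1. Xcr1, for the receptor of lymphotactin, measured 39.9 and 36.8 CPM in control and 29.2 and 33.4 CPM in knockout and fell by 0.29 (edgeR adjusted p = 0.046), a call that was lost with library totals (-0.10, adjusted p = 0.49).

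Of the ligands, receptors and SMAD genes, 15 were tested in the colon, where 8 rose, 1 fell and 6 did not pass (median 0.33). Tgfbr1 rose by 0.76 on the log2 scale, and Tgfb1, the main ligand gene, fell by 0.39 but did not pass with library totals (-0.19, edgeR adjusted p = 0.23). Of 15 feedback and co-repressor genes 5 rose, among them Skil (0.77), 4 fell, among them Id2 (-0.78), and 6 did not pass (median 0.13). Of 15 response genes 5 rose, among them Nt5e (1.13) and Maf (0.59), 3 fell, among them Rgs16 (-0.58), and 7 did not pass (median 0.09). Of 7 aryl hydrocarbon receptor targets 3 rose, Il22 fell and 3 did not pass (median 0.71). Scaled by library totals, 11 rose and 0 fell in the first of these lists, 7 rose and 2 fell in the second, 9 rose and 1 fell in the third, and 4 rose and 1 fell in the last. Over all genes tested 5548 passed with that scaling and the median log2 fold change was 0.21, so a tilt towards rises in these lists cannot be read from the counts alone. Scaling by library totals in place of TMM raised the log2 fold changes of all tested genes by 0.19 at the median, and Ttbk1 (-0.78), Xcl1 (0.72) and Insm1 (0.91) kept their direction and passed with it.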

How the data were processed

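RNA was sequenced from 8 mouse CD4+ T cell libraries, 4 from colon and 4 from culture. Per the file headers, what the authors deposited are counts of reads for each gene, not normalized. Each file held only whole numbers. Per the submitters' processing notes, Trim Galore, Bowtie2, featureCounts, edgeR and DESeq2 were used with mm10, with no roles stated. The sources used here name no strand setting, read type or annotation release. The colon files hold 54446 entries with Ensembl identifiers (54409 in GENCODE M21) and the culture files 55341 with symbols (55315 in M21). They share 53773 symbols, and symbols turned into dates (27 and 26, at most 0.269% of counts) were not named.

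The members were found from the culture counts by the rule given above. The members and lists were chosen with earlier results of these data known, and 3 lists (NK and CD8 cells, enteroendocrine cells, relatives) and the named neighbours after seeing values. All members are named, with Rora, genes at the edges of the rule and list members.

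Colon genes were tested with edgeR 4.0.16 in R 4.3.3 (filterByExpr, TMM, quasi-likelihood F-test, Benjamini-Hochberg, threshold 0.05), 2 libraries against 2. Nothing says that these came from separate mice, so the p-values may reflect technical spread alone. In simulated data for this comparison edgeR recovered 94% of 50 genes changed 2-fold and 56% of 50 changed 1.5-fold. That simulation gave every gene the same spread, changed few genes and drew them from all levels. Its shares may thus be too high for members with few counts. CPM are TMM-scaled, computed from the deposited counts. Culture ratios have no replicates. Their log2 form used a prior count of 2, and their 95% intervals are exact binomial ones (Clopper-Pearson), for counting error only. Alternatives were DESeq2 1.42.0, DESeq2 size factors, library totals, no filter, each library left out, a replicate block, other levels, prior counts and thresholds of the rule. Some listed genes are counted but not reported by name here.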

Additional observations from a re-analysis of the deposited data

How the results depend on the processing

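The calls of Ttbk1 (lower), Xcl1 and Insm1 (higher) in the colon kept their direction and passed under each of the 9 alternatives run. Their largest adjusted p was 5.1e-04, 0.0030 and 0.047, the last for Insm1 without control replicate 1 in edgeR. The count of 3 called members did not change. Among members that did not pass, Fgfrl1 changed sign with library totals (0.036) and ran from -0.31 to 0.0054 with 1 library left out, the last without control replicate 2. With 1 library left out, Ankrd55 ran from -0.017 (without control replicate 2) to 0.17, and it was also below 0 without knockout replicate 1. Also with 1 library left out, Adam12 ran from -1.99 to -0.78 and Samd4 from 0.42 (without control replicate 2) to 0.88, neither passing. The median of the tested members moved from 0.09 to 0.28 with library totals, and to 0.0054 without control replicate 2.

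The number of members depends on the thresholds. It was 13 as given, 7 with 6 or fewer counts allowed with the IL-23 mix, 33 with 24 or fewer, 41 with 20 or more counts asked for in each TGF-β library and 4 with 80 or more. At such counts a change of a few reads decides membership.

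The replicate numbers of the colon libraries are not known to pair animals. Same-numbered libraries deviated together with a correlation of 0.15 over genes, from 2 pairs. With the replicate block 6230 genes passed in place of 5173, and the same number of members, 3.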
